A study of Mus musculus with 24 samples.

Results

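The expression of 9 retinoic acid genes was examined in ribosomal RNA depleted total RNA of differentiated mouse CCE cells and of fetal head (FH). The genes were picked by name from 22380 protein-coding genes of the GENCODE M1 annotation (mm9), by a rule that uses no measured value, though earlier results of these data were known when they were chosen. They are the receptors Rara, Rarb and Rarg, the degrading enzymes Cyp26a1 and Cyp26b1, the binding proteins Crabp1 and Crabp2, the uptake receptor Stra6 and the retinaldehyde reductase Dhrs3. CCE is a feeder-independent embryonic stem cell line of strain 129/SvEv. All CCE samples had LIF withdrawn and were given 0.266 uM retinoic acid for 5 days, so no untreated CCE sample entered the comparison. FH is the head of FVB/N embryos at 14.5 dpc, a mixture of brain, eye, skin, cartilage, muscle and blood that was given no retinoic acid. The comparison of CCE with FH is therefore a comparison of a treated cell line with an untreated tissue of another strain, and treatment, strain and cell composition cannot be told apart. In such bulk RNA, fewer cells that express a gene and less RNA per cell cannot be told apart either.

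Ribosomal RNA was removed with the RiboMinus kit, with 8 libraries of CCE and 6 of FH, or with the Ribo-Zero kit, with 1 library of each. Behind the RiboMinus libraries stand 7 cDNAs, 4 made from CCE and 3 from FH, which are called preparations here and were each run at Vienna-IMP and at Nijmegen. Of the CCE preparations, 2 were fragmented as RNA by hydrolysis and 2 as cDNA by shearing. The FH preparations were 2 hydrolysed and 1 sheared, and 1 of the hydrolysed preparations had been through 2 rounds of depletion. CCE preparations are technical replicates and no separate FH animals are stated, so p-values measure the spread between preparations, which may be technical. The study applied both fragmentation methods to the same depleted samples. By their labels, preparations of the same tissue and number thus share 1 depleted RNA. The 4 CCE and 3 FH preparations are therefore not independent samples, and their spread includes that between fragmentation methods. The RNA of the Ribo-Zero libraries is a biological replicate. A RiboMinus library held 920424 to 2473448 uniquely aligned tags, and the Ribo-Zero libraries held 28708715 in CCE and 48426051 in FH. The hydrolysed preparations went against their numbers, since across genes the log2 ratio of preparation 1 to 2 correlated negatively between the locations, with r = -0.644 in CCE and -0.496 in FH. With these numbers exchanged at Nijmegen, the calls of the 9 genes given here held except that of Crabp1 (limma adjusted p = 0.0631). The study regarded 1 FH library as a probable technical outlier by its tag types, and by the order of its lanes this is FH1 hydrolysed at Vienna-IMP. Left out, a choice made after the data were seen, it changed no call of the 9 genes but that of Crabp1. Levels are given as RPKM, the tags with their midpoint in the exons of a gene scaled by exon length and by the unique tags of the library.

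Retinoic acid is made from vitamin A (retinol) in 2 oxidation steps, acts inside the nucleus and is broken down by the cells that receive it. STRA6 takes up retinol from its carrier in blood, DHRS3 returns retinaldehyde to retinol and so limits synthesis, and the CRABP proteins bind retinoic acid in the cytoplasm. The CYP26 hydroxylases degrade it. The receptors RARA, RARB and RARG bind DNA together with an RXR partner at paired copies of a short half-site and switch on nearby genes when retinoic acid is bound. Several genes of the pathway are themselves direct targets, and Cyp26a1, Rarb, Dhrs3 and Stra6 are textbook examples of genes that retinoic acid induces. In the fetal head, retinoic acid signalling patterns the hindbrain, the eye and the face.

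The paired half-sites are shown because repeats of this kind are what the receptors are known to bind. The promoters of all 31 annotated transcription start positions of the 9 genes were searched on both strands for direct repeats of the half-sites AGGTCA or AGTTCA or GGGTCA or GGTTCA with 1, 2 or 5 bases between them, named DR1, DR2 and DR5. In the window from 250 bases before to 50 after a start, 2 genes held a DR5, shown with the half-sites in capitals and read 5′ to 3′ on the strand given.
Cyp26a1, chr19:37772261-37772287, mm9, minus strand: aaattAGTTCAcccaaAGTTCAtcttt
Rarb, chr14:17408022-17408048, mm9, minus strand: ggaagGGTTCAccgaaAGTTCActcgc
The centre of the Cyp26a1 repeat lay 24 bases before the start of its annotated transcript. The Rarb repeat lay 49 bases before the start of Rarb-202, the transcript of the downstream promoter. Among 22372 genes searched in the same way, 24 (0.107%) held a DR5 in this window, 33 (0.148%) a DR2 and 69 (0.308%) a DR1, so the letters are rare in promoters at large. A window from 2000 bases before each start, chosen after the first search had been seen, added 3 repeats.
Rara, chr11:98821317-98821343, mm9, plus strand: aggcgAGTTCAgcaagAGTTCAgccga
Cyp26a1, chr19:37770394-37770420, mm9, plus strand: tgcagGGGTCAcaggcGGGTCAggcta
Crabp2, chr3:87751442-87751465, mm9, plus strand: tccccAGTTCAccAGGTCAgggct
The Rara repeat is a DR5 centred 396 bases before Rara-004, again the transcript of the downstream promoter, and the added Cyp26a1 repeat is a DR5 at 1891 bases. The Crabp2 repeat is a DR2 at 1134 bases before the start. In the longer window 212 genes (0.948%) held a DR5 and 2.79% of genes a DR2. No match to these letters was found within these windows in Rarg, Cyp26b1, Crabp1, Stra6 and Dhrs3. A match describes the sequence and is not evidence of a bound site. The 9 genes were picked as retinoic acid genes, some of them known direct targets. They had 31 windows, while the 22372 genes had 46028, so the shares are background values and no test of enrichment.

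The labelled origins were compared with marker genes. Of 9 markers of extraembryonic endoderm, 7 were lower in FH and none was higher, and the summed RiboMinus level of the list was 131 to 217 RPKM in the CCE preparations and 34.9 to 44.2 in FH. All 5 markers of pluripotent cells were still present in treated CCE, with a summed level of 39.4 to 50.6 RPKM against 0.876 to 1.06 in FH. All 6 neuron markers were higher in FH, as were all 3 markers each of lens, blood and muscle. The 5 markers of retinal pigment epithelium, a tissue known for Stra6, had a summed level of 0.818 to 2.81 RPKM in CCE and 11.1 to 15.4 in FH. Of these markers Pmel and Rlbp1 passed the filter on low values and were higher in FH, Tyr and Tyrp1 had tags in FH alone, and Rpe65 had no tag in any preparation.

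Of the 9 genes, Cyp26a1, Dhrs3, Stra6, Rara and Rarb were lower in FH than in CCE in the RiboMinus preparations and Crabp1 was higher, while Rarg, Crabp2 and Cyp26b1 did not pass the test. The largest difference was that of Cyp26a1, whose mean level was 55.2 ± 27.8 RPKM (SD, n = 4) in CCE and 4.09 ± 1.11 (SD, n = 3) in FH. Genes were tested with limma on log2(RPKM + 1), with p-values adjusted by Benjamini-Hochberg over 10306 genes, and the change is thus on a scale that understates low genes. Of these 10306 genes, 54.7% passed, 19.9% as higher and 34.8% as lower in FH, against 6, 1 and 5 of the 9 genes. The median log2 fold change (FH minus CCE) was -0.79 for the 9 genes and -0.34 over all genes tested. All 9 had a mean over 3 RPKM in both tissues, so none was lost to the filter.

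**Figure D1:**
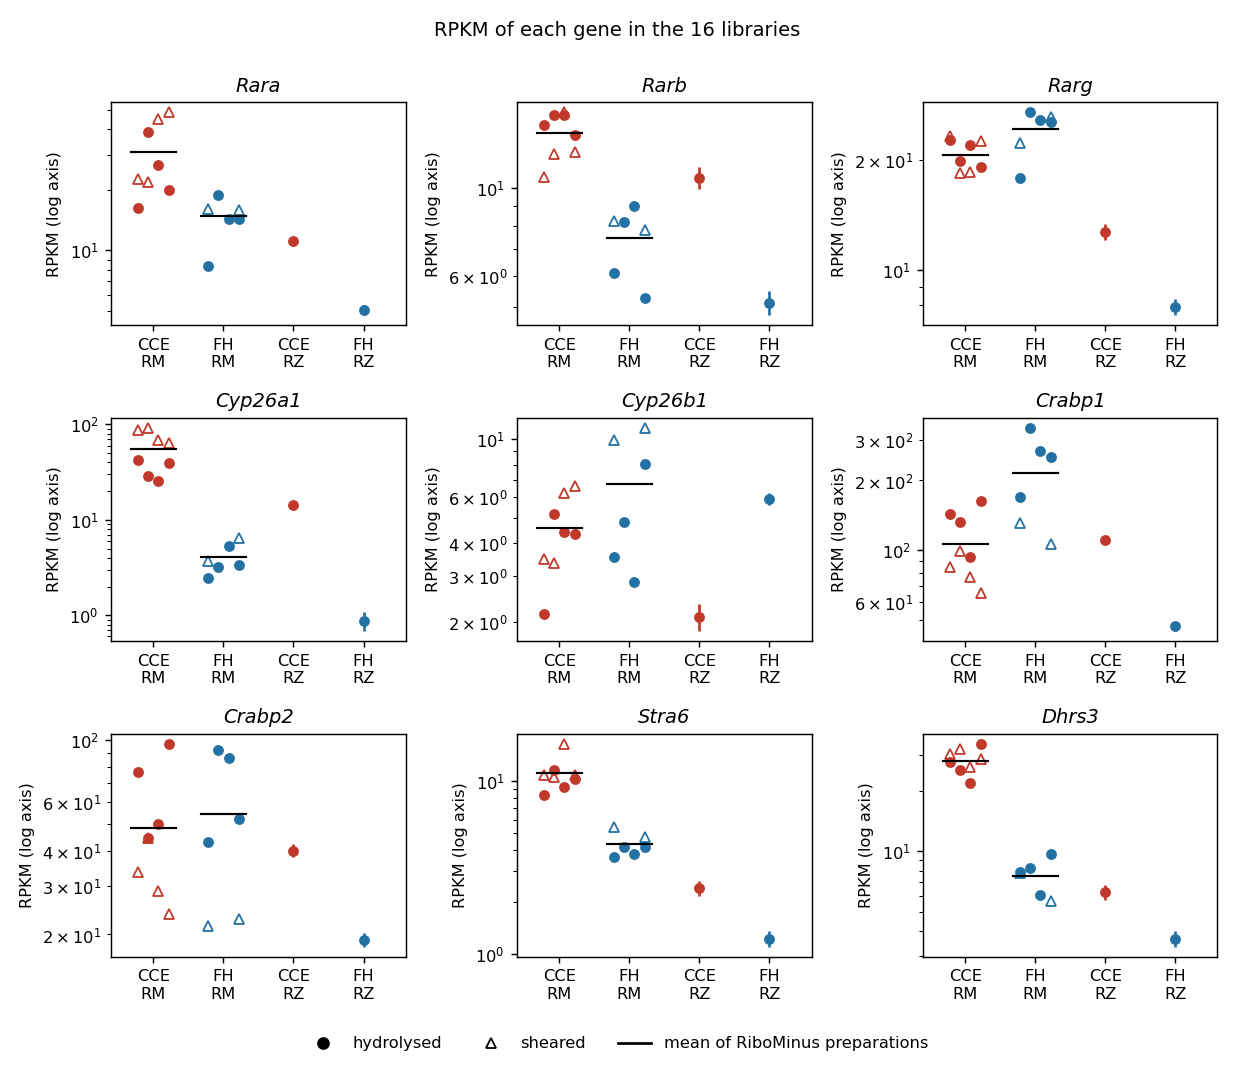
RPKM of the 9 genes (log axes) in each of the 16 libraries, grouped as CCE and FH for RiboMinus (RM) and Ribo-Zero (RZ). Filled circles are hydrolysed and open triangles sheared libraries, black lines are means of 4 CCE or 3 FH RiboMinus preparations, and vertical lines at Ribo-Zero points are 95% counting intervals. The CCE and FH RiboMinus libraries of Cyp26a1, Rarb, Stra6 and Dhrs3 do not overlap.

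The choice of scale mattered for the smaller changes. Scaled by median ratios, the median of all genes was -0.02 and 4824 genes passed, 54.7% of them higher in FH, against 36.5% of the 5638 genes called with RPKM. On that scale Cyp26a1 (-3.03), Dhrs3 (-1.42), Stra6 (-0.86) and Rarb (-0.46) were still lower and Crabp1 (1.33) higher in FH. Rarb passed narrowly, with a limma adjusted p = 0.048. Rara fell by 0.59 on the log2 scale and no longer passed, with a limma adjusted p = 0.118, while Rarg, at 0.58, did, with a limma adjusted p = 0.0114. Scaling to exon tags gave the same 2 changes of call, and Rarb passed with a limma adjusted p = 0.0418. Relative to the median of all genes, the RPKM changes of Cyp26a1, Dhrs3, Stra6, Rara and Rarb were -3.01, -1.42, -0.84, -0.60 and -0.45.

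Cyp26a1 and Cyp26b1 encode the enzymes that hydroxylate retinoic acid and so end its signal. Cyp26a1 ranged from 25.4 to 91.0 RPKM over the 8 CCE RiboMinus libraries, with a median of 52.9, and from 2.47 to 6.41 over the 6 FH libraries, with a median of 3.51. Every CCE library was thus above every FH library, by a gap wider than the whole FH range. The log2 fold change was -3.35 (SE 0.374, limma adjusted p = 8.82e-05), the lowest but for 69 genes, at rank 70 of 10306. FH levels rested on few tags, 69 over the 6 libraries against 1218 in CCE. The difference was seen in each location, at -3.33 from Vienna-IMP tags and -3.45 from Nijmegen tags. In Ribo-Zero, where there is 1 library per tissue and no test, Cyp26a1 had 725 tags and 14.2 RPKM in CCE and 75 tags and 0.874 RPKM in FH. It was 16.3-fold higher in CCE, with an exact 95% interval of 12.8 to 20.97 that covers counting error only.

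Cyp26b1 did not pass the test in RiboMinus and was higher in FH in Ribo-Zero. Its RiboMinus level ranged from 2.15 to 6.64 RPKM over CCE libraries, with a median of 4.38, and from 2.85 to 11.0 over FH libraries, with a median of 6.43. The 2 groups of libraries overlapped. The log2 fold change of 0.42 (95% interval -0.25 to 1.09) did not pass, with a limma adjusted p = 0.251. It rested on FH1 sheared, which had 10.47 RPKM against 4.27 and 5.48 in the hydrolysed FH preparations, and was 0.098 without it and 0.17 in hydrolysed preparations alone. In Ribo-Zero it was the 1 gene of the 9 with a higher RPKM in FH, 5.92 against 2.10, from 1319 and 277 tags. That ratio was 2.82 (exact 95% interval 2.48 to 3.23), while the median log2 ratio of all 10057 genes in this comparison was -0.65.

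The make-up of the CYP26 pair differed between the tissues. Cyp26a1 made up 87.8% to 96.3% of the summed RPKM of the pair in the 4 CCE preparations and 32.7% to 44.0% in the 3 FH preparations. The means were 91.1% ± 3.72 (SD, n = 4) and 39.0% ± 5.79 (SD, n = 3), a difference of -52.2 percentage points. The exact two-sided permutation test gave p = 0.0571, the smallest that 4 against 3 preparations can give, and all 5 shares tested, for 3 receptors and for 1 gene each of the CYP26 and CRABP pairs, reached the same value (adjusted p = 0.0571), so that none could pass 0.05. In Ribo-Zero the share of Cyp26a1 was 87.2% in CCE and 12.9% in FH.

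**Figure D2:**
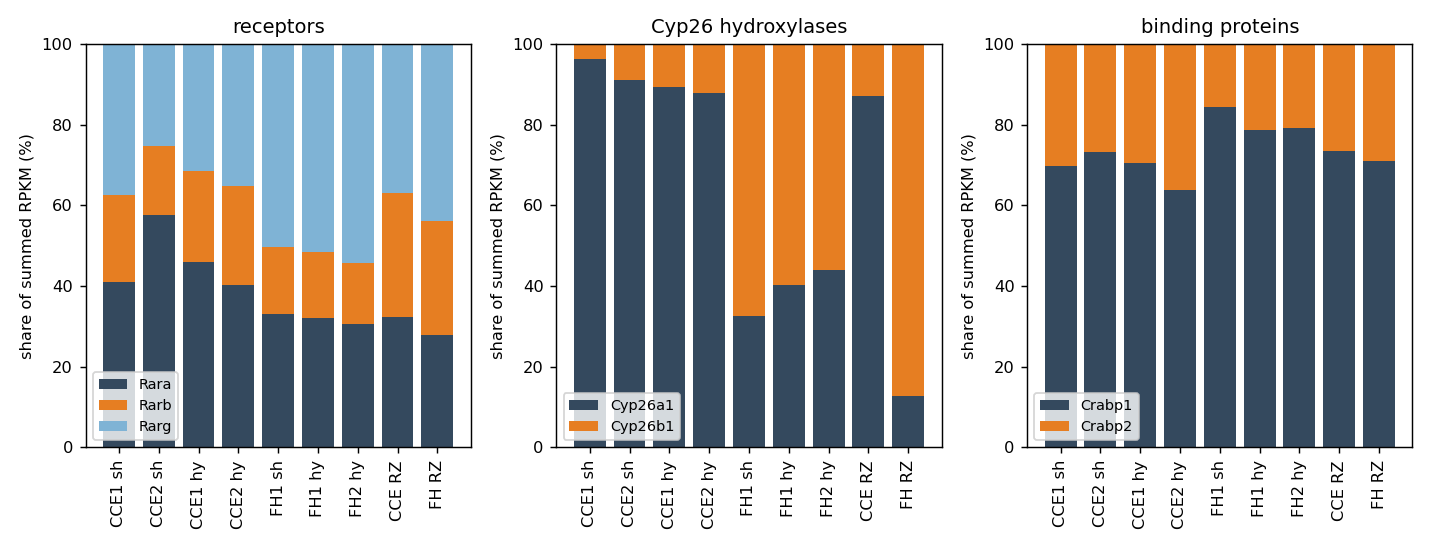
Share of the summed RPKM (%) of the receptors, the CYP26 enzymes and the CRABP proteins taken by each gene in the 7 RiboMinus preparations (sh, sheared; hy, hydrolysed) and the 2 Ribo-Zero libraries (RZ). Cyp26a1 takes at least 87.2% of its pair in every CCE bar and at most 44.0% in every FH bar.

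Dhrs3 and Stra6 act at the entry of the pathway. Dhrs3, the reductase that turns retinaldehyde back to retinol, ranged from 21.8 to 34.1 RPKM over CCE RiboMinus libraries, with a median of 28.3, and from 5.65 to 9.68 over FH libraries, with a median of 7.85. The groups did not overlap. Its log2 fold change was -1.76 (SE 0.161, limma adjusted p = 2.52e-05), with -1.83 at Vienna-IMP and -1.74 at Nijmegen. In Ribo-Zero the difference was smaller, 6.27 RPKM in CCE and 3.66 in FH, a ratio of CCE to FH of 1.71 (exact 95% interval 1.51 to 1.94). On the log2 scale this lay 0.13 below the median of all genes, so that its Ribo-Zero difference was close to that of the typical gene.

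Stra6, the cell surface receptor for the retinol carrier, ranged from 8.36 to 16.5 RPKM over CCE RiboMinus libraries, with a median of 10.7. In FH the libraries lay between 3.65 and 5.41 RPKM, with a median of 4.14, and did not reach the lowest CCE library. The log2 fold change was -1.18 (SE 0.184, limma adjusted p = 0.000663), with -1.14 at Vienna-IMP and -1.19 at Nijmegen. In Ribo-Zero it had the second lowest level of the 9 genes in each tissue, at 2.40 RPKM in CCE and 1.22 in FH. Both values were under the level of 3 RPKM that the study regards as reliable, and the ratio of CCE to FH was 1.97 (exact 95% interval 1.70 to 2.28). Of the 9 genes, 4 had RiboMinus libraries of CCE and FH that did not overlap, against 35.3% of all genes tested.

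Of the receptor genes, Rara and Rarb were lower in FH and Rarg did not pass the test. Rara ranged from 16.3 to 48.6 RPKM over CCE RiboMinus libraries, with a median of 24.6, and from 8.35 to 18.8 over FH libraries, with a median of 15.1. The libraries overlapped, but the preparations, with tags of both locations summed, did not, as for 6 of the 9 genes and 56.2% of all genes tested. The means were 30.7 ± 11.3 (SD, n = 4) in CCE and 14.9 ± 0.961 (SD, n = 3) in FH, and the log2 fold change was -0.94 (SE 0.259, limma adjusted p = 0.0137). It was -0.85 at Vienna-IMP, with a limma adjusted p = 0.042, and -0.995 at Nijmegen, where it missed the threshold with a limma adjusted p = 0.0601. Rarb ranged from 10.6 to 15.4 RPKM over CCE libraries, with a median of 14.0, and from 5.27 to 8.97 over FH libraries, with a median of 8.01, without overlap. Its log2 fold change was -0.79 (SE 0.164, limma adjusted p = 0.00322), with -0.84 at Vienna-IMP and -0.77 at Nijmegen. Rarg had 18.4 to 23.2 RPKM over CCE libraries and 17.8 to 26.9 over FH libraries, with medians of 20.9 and 25.5. Its libraries overlapped, while its preparations, at 20.1 to 20.9 in CCE and 23.0 to 25.5 in FH, did not. Its log2 fold change of 0.23 (95% interval -0.11 to 0.56) did not pass, with a limma adjusted p = 0.219.

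As a share of all receptor RPKM, Rarg took 32.3% ± 5.35 (SD, n = 4) in CCE and 52.1% ± 2.11 (SD, n = 3) in FH preparations. Rara took 46.2% ± 8.06 in CCE and 31.9% ± 1.31 in FH, and Rarb 21.5% ± 3.16 and 16.0% ± 0.809. No share overlapped between the tissues, at the smallest p that the exact permutation test allows. In Ribo-Zero all 3 receptors were lower in FH. Rara had 11.1 RPKM in CCE and 5.05 in FH, Rarb 10.6 and 5.12, and Rarg 12.7 and 7.92. The ratio of CCE to FH was 2.20 for Rara (exact 95% interval 2.03 to 2.38), 2.06 for Rarb (1.88 to 2.26) and 1.60 for Rarg (1.49 to 1.72). Relative to the median of all genes, the log2 ratios of FH to CCE were -0.48, -0.39 and -0.03, so that of Rarg was close to the typical gene. Rarg took 37.0% of receptor RPKM in CCE and 43.8% in FH, a shift in the same direction as in RiboMinus but smaller.

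**Figure D3:**
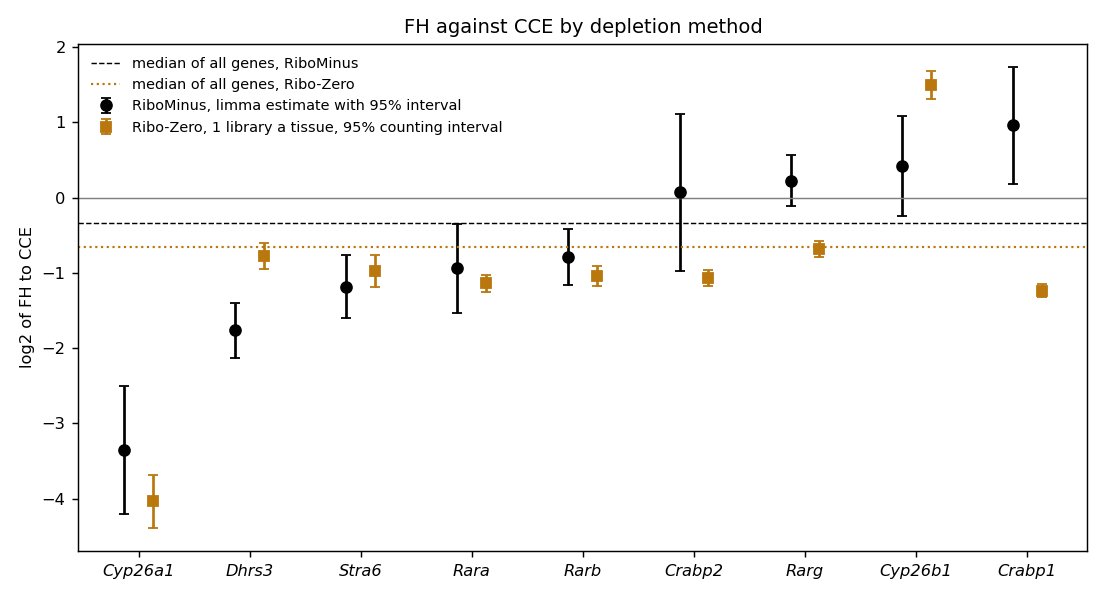
Log2 of FH to CCE for the 9 genes, ordered by the RiboMinus value. Circles are limma estimates on log2(RPKM + 1) with 95% intervals from 4 CCE and 3 FH RiboMinus preparations, squares are Ribo-Zero ratios with 95% counting intervals, and dashed and dotted lines are the medians of all genes, at -0.34 and -0.65. Cyp26a1 lies far below both lines, and Crabp1 lies above 0 in RiboMinus and below it in Ribo-Zero.

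Each receptor gene has an upstream and a downstream promoter, and the downstream promoters, which give the RARA2, RARB2 and RARG2 forms, are known as the ones that retinoic acid induces. Exon stretches used by the transcripts of 1 promoter alone were therefore counted. For Rarg the stretches were 674 bases for the upstream (RARG1) and 441 bases for the downstream promoter (RARG2), which lies at chr15:102076491-102076931 (mm9, minus strand, the first exon of Rarg-002). The downstream stretch had 81 tags and 14.1 RPKM in pooled CCE RiboMinus libraries and 37 tags and 8.45 RPKM in FH. The upstream stretch had 38 tags and 4.32 RPKM in CCE and 105 tags and 15.7 RPKM in FH. The downstream promoter thus gave 76.5% of the summed density in CCE (exact 95% interval 68.7% to 83.1%) and less than the upstream promoter in FH (26.5% to 44.1%). The CCE preparations had shares of 65.3%, 75.3%, 86.4% and 75.3%, and the FH preparations, at 31.2%, 32.8% and 37.7%, did not overlap with them. In Ribo-Zero it was 77.0% in CCE (70.9% to 82.2%) and 38.3% in FH (31.6% to 45.2%). Rarg, whose total level did not pass the test, thus came with different shares of its promoters in the tissues.

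Rarb showed the downstream form nearly alone in CCE and a part of upstream form in FH. Its downstream stretch of 615 bases, at chr14:17407372-17407986 (mm9, minus strand) and next to the DR5 printed for this gene, had 184 tags in CCE RiboMinus libraries and 88 in FH, or 22.9 and 14.4 RPKM. The upstream stretches, 259 bases of the RARB1 and RARB3 forms, had no tag in CCE and 10 in FH. The upstream density was at least 2.95-fold higher in FH, the lower limit of the exact 95% interval. The downstream share of the summed density in FH was 78.8% (exact 95% interval 65.8% to 88.9%), with 69.8%, 78.7% and 86.7% in the preparations, against an interval of 95.4% to 100% in CCE. In Ribo-Zero the upstream stretches had 1 tag in CCE and 16 in FH, a ratio of FH to CCE of 9.49 with an exact 95% interval of 1.47 to 398. The downstream share there was 99.1% in CCE and 79.2% in FH. The downstream stretch had a 2.93-fold higher density in the CCE Ribo-Zero library (exact 95% interval 2.38 to 3.62) and a 1.59-fold higher one in pooled CCE RiboMinus libraries (1.23 to 2.07). The RiboMinus preparations overlapped, at 17.4 to 25.3 RPKM in CCE and 11.7 to 18.9 in FH, since FH1 sheared was above CCE1 sheared.

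Rara gave a less uniform picture. Its downstream stretch of 722 bases, at chr11:98821726-98822447 (mm9, plus strand), had 12.9 RPKM in CCE and 7.95 in FH in RiboMinus, a ratio of CCE to FH of 1.63 (exact 95% interval 1.18 to 2.27). The 1127 bases of the upstream promoter had 10.4 RPKM in CCE and 5.54 in FH, a ratio of 1.88 (1.39 to 2.56), both from pooled tags. By preparation the downstream stretch had 10.3 to 19.97 RPKM in CCE and 7.33 to 8.58 in FH, without overlap. The upstream stretch overlapped, at 4.16, 17.4, 12.0 and 8.43 RPKM in CCE and 7.52, 4.54 and 5.54 in FH, with CCE1 sheared below every FH preparation. The downstream share was 55.4% in CCE and 58.9% in FH, within their counting intervals. In Ribo-Zero the downstream stretch was 4.74-fold higher in CCE (3.59 to 6.34) and the upstream stretch 1.32-fold (1.04 to 1.68), and the downstream share was 70.3% in CCE and 39.8% in FH. The depletion methods thus differed on Rara, while for Rarg and Rarb they gave the same direction.

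**Figure D4:**
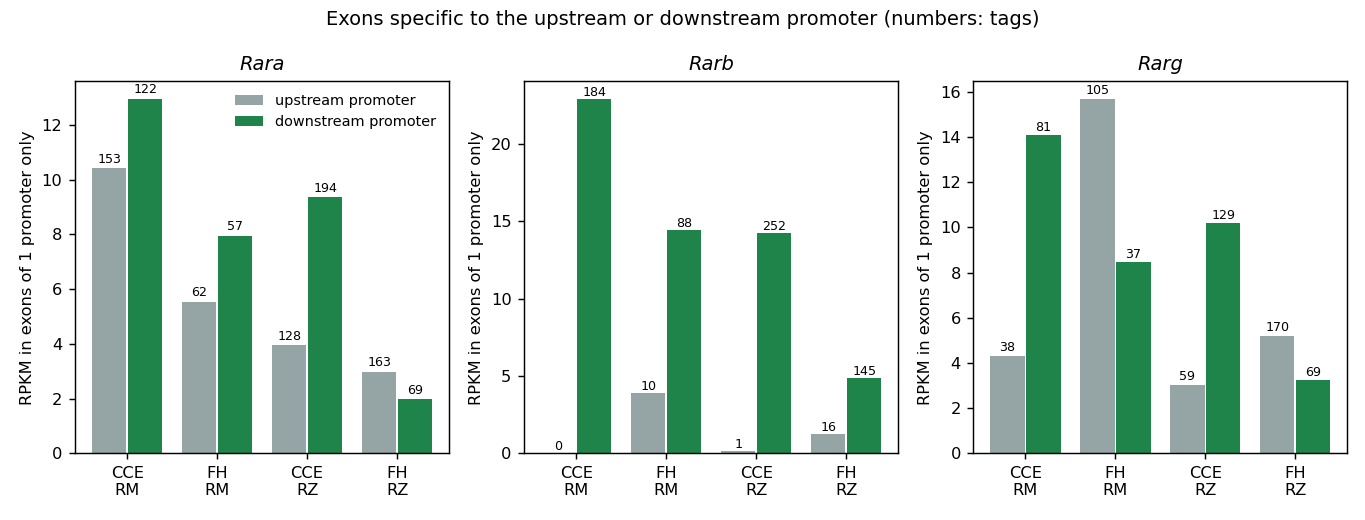
RPKM in exon stretches used by transcripts of the upstream or of the downstream promoter alone, for Rara, Rarb and Rarg in pooled RiboMinus (RM) and Ribo-Zero (RZ) libraries of CCE and FH, with the number of tags above each bar. For Rarg the taller bar is the downstream promoter in CCE and the upstream promoter in FH under both depletion methods.

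The binding proteins carry retinoic acid between its source, its receptors and its degrading enzymes, and Crabp1 was the most abundant of the 9 genes in both tissues. It ranged from 65.7 to 163 RPKM over CCE RiboMinus libraries, with a median of 96.4, and from 107 to 336 over FH libraries, with a median of 211. The 2 groups overlapped. Its means were 106 ± 29.3 (SD, n = 4) in CCE and 215 ± 83.0 (SD, n = 3) in FH, and the log2 fold change was 0.96 (SE 0.342, limma adjusted p = 0.0404). This call did not hold at either location alone, with 0.93 (limma adjusted p = 0.0864) at Vienna-IMP and 0.90 (limma adjusted p = 0.0752) at Nijmegen. It was also lost when CCE1 sheared (0.91), CCE2 sheared (0.78), FH1 hydrolysed (0.77) or FH2 hydrolysed (0.77) was left out, and without the highest library, FH1 hydrolysed at Vienna-IMP, alone (0.75, limma adjusted p = 0.0926). In the hydrolysed preparations alone the call held, at 1.01 (limma adjusted p = 1.31e-05), with 2 preparations per tissue. The FH mean of these libraries was 1.93 times the CCE mean. With fragmentation as a covariate the call held too, at 0.82 (limma adjusted p = 0.000804). Both fits kept the labelled numbers, and the exchange at Nijmegen was not tried on them. If the hydrolysed numbers are crossed, summing by label mixes preparations 1 and 2 and can narrow the spread that these p-values use. In Ribo-Zero, which was hydrolysed too, Crabp1 was lower in FH, at 47.1 RPKM against 111, a ratio of CCE to FH of 2.35 (exact 95% interval 2.21 to 2.50). The direction of the Crabp1 difference was thus opposite in the RiboMinus and Ribo-Zero libraries. The position diversity of its tags was low, with 24.5% (CCE) and 28.7% (FH) of Ribo-Zero tags at distinct positions over 802 bases of exon. Its Ribo-Zero log2 ratio of FH to CCE stayed between -1.30 and -1.22 in 4 alternatives, including repeated positions counted once.

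Crabp2 ranged from 23.7 to 96.8 RPKM over CCE RiboMinus libraries, with a median of 44.5, and from 21.4 to 92.6 over FH libraries, with a median of 47.6. The ranges were nearly the same, and the log2 fold change of 0.07 had a 95% interval of -0.97 to 1.12 (limma adjusted p = 0.907), too wide to say that the tissues were alike. In Ribo-Zero it was 2.10-fold higher in CCE (exact 95% interval 1.94 to 2.26), at 40.1 RPKM against 19.1. Crabp1 took 69.3% ± 3.93 (SD, n = 4) of the pair in CCE and 80.7% ± 3.15 (SD, n = 3) in FH preparations, without overlap. The Ribo-Zero libraries did not share this direction, at 73.4% in CCE and 71.1% in FH.

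In Ribo-Zero 8 of the 9 genes had a level over 3 RPKM in at least 1 tissue, all but Stra6. Of these 8, 5 were more than 2-fold lower in FH (Rara, Rarb, Cyp26a1, Crabp1 and Crabp2), 1 was more than 2-fold higher (Cyp26b1) and 2 were within 2-fold. With repeated positions counted once, Cyp26b1 was no longer past 2-fold (log2 ratio 0.96) while Dhrs3 (-1.01) and Stra6 (-1.22), the latter now over the filter, were, which gave 7 genes. This setting also scaled by distinct positions, 51.4% of all tags in CCE and 62.6% in FH, which lowers every ratio of FH to CCE. The tags of Dhrs3 (71.2% and 73.8% distinct) and Stra6 (78.6% and 80.6%) did not lose more in FH, so their shift came with the scale. With coding parts of exons Crabp2 was no longer past 2-fold (-0.96) and Stra6 was (-1.06), which gave 6. Over 10057 genes, 32.9% were more than 2-fold lower and 12.1% more than 2-fold higher in FH. Measured against the median log2 ratio of -0.65, Cyp26a1 stood 3.38 below and Cyp26b1 2.15 above, while the other 7 lay between -0.58 and -0.03.

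Fragmentation moved some of these genes within CCE. Cyp26a1 ranged from 25.4 to 42.0 RPKM in the 4 hydrolysed and from 63.8 to 91.0 in the 4 sheared CCE libraries, a mean 2.28 times as high. Crabp2 went the other way, at 44.7 to 96.8 in hydrolysed and 23.7 to 44.3 in sheared libraries, a mean 2.06 times as high after hydrolysis. These 2 of 9 genes did not overlap between the methods, against 29.1% of all genes tested. Crabp1 leaned as Crabp2 did, with means of 133 and 81.6 RPKM, but its libraries overlapped. Since the share of sheared preparations differed between the tissues, fragmentation was also taken as a covariate. The log2 fold change was then -3.21 for Cyp26a1, 0.82 for Crabp1 and -0.13 for Crabp2, and no call of the 9 changed. An interaction test asked a separate question, whether the tissue difference itself differed between the fragmentation methods. No gene of the 9 passed, the lowest unadjusted limma p being 0.0456 for Cyp26a1 (limma adjusted p = 0.602), with -2.89 in hydrolysed and -3.68 in sheared preparations. Over all genes 8 of 10306 passed (0.0776%) and 842 had an unadjusted p under 0.05, in a design with 1 sheared FH preparation.

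The depletion methods also gave different levels for the same tissue, from different RNA. In CCE the pooled RiboMinus level was 4.57 times that of Ribo-Zero for Stra6, 4.45 for Dhrs3, 3.70 for Cyp26a1 and 2.72 for Rara, 2.14 for Cyp26b1, 1.62 for Rarg, 1.31 for Rarb, 1.25 for Crabp2 and 0.993 for Crabp1. Of 9850 CCE genes, ranked by the ratio of RPKM + 1, 96.5% had a lower RiboMinus to Ribo-Zero ratio than Dhrs3 and 42.7% a lower one than Crabp1. In FH it was 4.99 for Crabp1, 4.49 for Cyp26a1, 3.41 for Stra6, 3.18 for Crabp2, 3.07 for Rarg, 2.90 for Rara, 2.12 for Dhrs3, 1.43 for Rarb and 1.01 for Cyp26b1. Of 10074 FH genes, ranked in the same way, 98.4% had a lower ratio than Crabp1 and 68.3% a lower one than Dhrs3. The median log2 of this ratio over all genes was 0.21 in CCE and 0.45 in FH, so levels differed between the methods for genes at large too. Ratios of FH to CCE were taken within 1 depletion method for this reason.

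Introns carry unspliced RNA and were measured apart from exons. In RiboMinus preparations, intron density was 0.564 ± 0.182 RPKM (SD, n = 4) in CCE and 1.28 ± 0.0578 (SD, n = 3) in FH for Rarg, and 0.246 ± 0.0657 and 0.705 ± 0.0770 for Cyp26b1. For Cyp26a1 it was 2.43 ± 0.736 in CCE and 0.222 ± 0.0897 in FH, from 60 and 4 tags. Crabp1 had 0.304 ± 0.149 in CCE and 0.563 ± 0.0706 in FH. For these 4 genes the preparations of the tissues did not overlap, as for 39.2% of 8253 tested genes with at least 50 intron tags, and the exact two-sided permutation p was 0.0571, the smallest possible (0.129 after adjustment over 9 genes). The introns of Cyp26a1 thus differed in the same direction as its exons.

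In the Ribo-Zero libraries, the intron density of Rarg was 2.40 times as high in FH (exact 95% interval 2.13 to 2.71) and that of Cyp26b1 2.78 times (2.30 to 3.38), while that of Cyp26a1, from 48 tags in CCE and 8 in FH, was 0.0988 times (0.0404 to 0.211) and that of Crabp1 0.422 times (0.335 to 0.529). Rarg exons were lower in FH in the same libraries, so exons and introns of Rarg went in opposite directions. The same was seen in Ribo-Zero for Rarb, Dhrs3 and Stra6, whose introns were 1.33, 1.46 and 1.22 times as high in FH with intervals above 1. These 4 of 9 genes compare with 36.7% of 9313 tested genes with at least 50 intron tags in these libraries. In RiboMinus preparations the mean intron density of Rarb (0.148 and 0.124 RPKM), Dhrs3 (0.492 and 0.326) and Stra6 (0.116 and 0.0726) was lower in FH than in CCE, with overlap, and that of Crabp1 was higher, so the methods gave opposite directions for these genes. In all, 5 of 9 genes had a Ribo-Zero interval above 1 and 2 below 1, against 63.3% and 17.7% of the 9313 genes, whose median ratio was 1.43. The counts of the 9 genes were thus close to those of genes at large. Relative to exon density, introns made up 4.93% in CCE and 19.0% in FH for Rarg, 6.20% and 15.5% for Dhrs3, 4.70% and 11.0% for Rara, and 12.7% and 12.6% for Cyp26b1. These percentages were not taken for all genes. Since the median gene had more intron tags in FH (1.43) and fewer exon tags (log2 ratio -0.65), a rise cannot be read as particular to these genes. The introns of Rarb span 385 kb and those of Stra6 overlap other genes, so tags of other transcripts may be counted in them, as the libraries carry no strand.

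**Figure D5:**
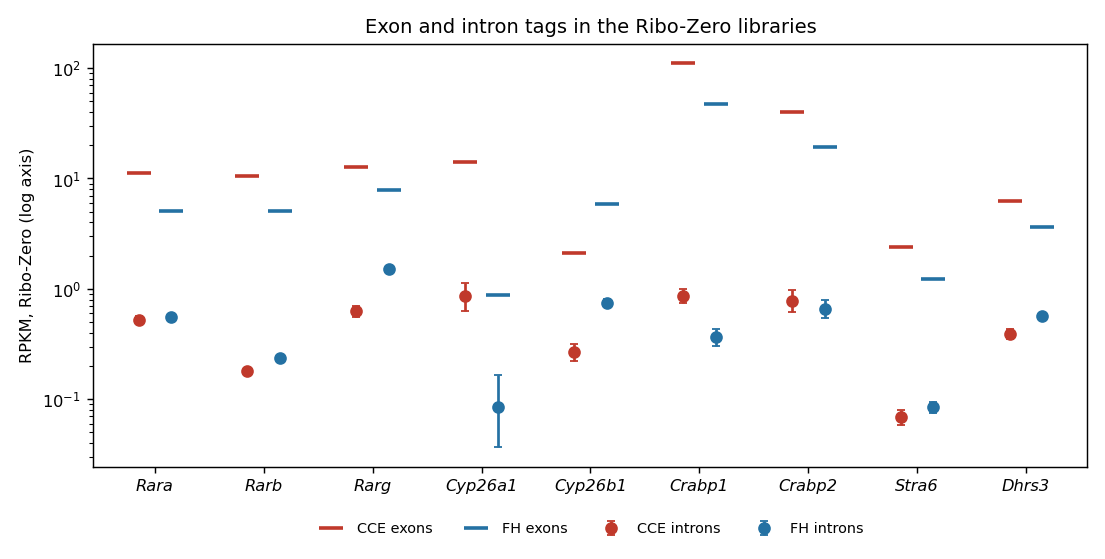
Exon (bars) and intron (circles, with 95% Poisson intervals) density in RPKM on a log axis for the 9 genes in the Ribo-Zero libraries of CCE and FH. Intron density of Rarg and Cyp26b1 is higher in FH, that of Cyp26a1 and Crabp1 higher in CCE.

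Ordered by mean RiboMinus level, CCE had Crabp1, Cyp26a1, Crabp2, Rara, Dhrs3, Rarg, Rarb, Stra6 and Cyp26b1. The ranges of neighbours overlapped from Crabp1 down to Dhrs3 and between Rarb and Stra6, while Dhrs3 and Rarg, Rarg and Rarb, and Stra6 and Cyp26b1 were apart. FH had Crabp1, Crabp2, Rarg, Rara, Dhrs3, Rarb, Cyp26b1, Stra6 and Cyp26a1. There Crabp1 was above Crabp2 without overlap, Rarg above Rara and Rara above Dhrs3, and the other neighbours overlapped. By these means Cyp26a1 went from the second place in CCE to the last in FH, with a neighbour overlapping it at both places. In CCE it was below Crabp2 in hydrolysed preparations alone (32.6 against 63.5 RPKM) and in Ribo-Zero (14.2 against 40.1).

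The genes closest in level over all 16 libraries were found by Euclidean distance on log2(RPKM + 1). For Cyp26a1 these were Epha2, a receptor tyrosine kinase, at a distance of 1.77, and Shisa3 at 1.82. Epha2 had 53.0 RPKM in CCE and 3.79 in FH, and Shisa3 had 50.6 and 6.05. For Dhrs3 they were Npnt, an extracellular matrix protein, at 1.13 and Ube2h at 1.17. Rara was closest to Tbrg4 (0.990) and 1810031K17Rik (0.991), Rarb to Cstf2 (0.868) and Med23 (0.981), and Rarg to Unc119 (0.961) and Trappc10 (1.02). Stra6 was closest to Ticam1 (1.02) and Zbtb7b (1.15), and Cyp26b1 to Rnf123 (1.22) and Bahcc1 (1.40). Crabp1 had the most distant neighbours, Ptms at 1.97 and Cst3 at 2.48, and Crabp2 had Uqcr10 at 1.61 and Hsd17b10 at 1.64. These distances compare patterns of level alone.

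Other genes of the retinoid pathway were taken from 4 lists of 49 genes, of which 33 passed the filter, 18 were lower in FH, 5 were higher and 10 did not pass the test. Among 19 genes of synthesis and storage, 9 were tested, 5 were lower and 1 was higher in FH, with a median log2 fold change of -0.74. Retsat (-1.38), which saturates retinol, Adh5 (-1.31) and Rdh11 (-1.30) were lower. So were Rdh10 and Aldh1a2, enzymes of the first and second step of synthesis in embryos. Rdh10 had 7.58 RPKM in CCE and 2.88 in FH (log2 fold change -1.18, limma adjusted p = 0.00229). Aldh1a2 had 13.2 and 7.47 RPKM (-0.74, limma adjusted p = 0.0152). Aldh1a3 of the same list went the other way, at 0.110 RPKM in CCE and 2.79 in FH. It was under the filter and not tested, and had 0.136 and 2.62 RPKM in Ribo-Zero. Of the 3 genes of transport and binding tested out of 7, Ttr, which carries retinol with RBP4 in blood and is made in the choroid plexus, was higher in FH (9.13 and 143 RPKM, 3.82). Rbp4 (10.9 and 1.25 RPKM, -2.40) was lower.

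All 10 receptor partners and cofactors were tested. Rxrg (3.11), an RXR partner, Ncoa1 (1.47) and Rxrb (0.60) were higher in FH. Ncoa3 (-1.57) and Nrip1 (-0.78) were lower, and 5 did not pass. Of these called genes, Rxrb alone changed direction in Ribo-Zero. It had 35.1 RPKM in CCE and 54.4 in FH in RiboMinus, but 15.4 and 10.9 in Ribo-Zero. Rxrg had 0.164 RPKM in CCE and 8.99 in FH. Among 13 other targets of retinoic acid, 11 were tested, 9 were lower in FH and none was higher, with a median of -1.39. Among those lower were Hoxb1 (5.96 RPKM in CCE and 0.0387 in FH, -2.74) and Cdx1 (4.27 and 0.0513, -2.27), both known to be induced early by retinoic acid. The share lower in FH was 34.8% over all genes tested, as given above.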

How the data were processed

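Single-end tags of 14 RiboMinus libraries (36 nt) and 2 Ribo-Zero libraries (51 nt) were used, each from rRNA-depleted RNA without strand information. The authors removed tags of ribosomal and, in RiboMinus only, mitochondrial sequence, aligned the rest with Bowtie (version not given in the sources used here) to mm9 and kept uniquely aligned tags. Tags across splice junctions were not aligned. The files deposited by the authors list positions, 1 tag per line, with no RPKM, and their score column is constant and was not used. Sheared libraries were taken as such from the labels, although the protocol text deposited with them describes hydrolysis. The 8 samples of extra lanes or combined lanes were left aside and not analysed here.

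Mitochondrial tags, 8.23% in CCE and 4.54% in FH Ribo-Zero and none in RiboMinus, stayed in the scaling, and leaving them out moved no gene of the 9 across 2-fold among those over 3 RPKM. Each tag was assigned by its midpoint to merged exons of GENCODE M1 genes, and counts were divided by exon length and by all unique tags of the library (RPKM). Exons of no gene of the 9 overlap exons of another gene, and at least 99.0% of their 36-base words occur once in the genome. CCE and FH were compared over cDNA preparations, the tags of both locations summed, with limma 3.58.1 in R 4.3.3 (trend) on log2(RPKM + 1) where the mean RPKM exceeded 3 in CCE or FH, with Benjamini-Hochberg adjustment and a threshold of 0.05. Shares and introns were compared with exact permutation tests of preparations. Introns of all tested genes were counted in the same way, with a minimum of 50 intron tags chosen after the counts of the 9 genes had been seen. Counts and ratios have exact Poisson or binomial intervals at 95%, which cover counting error only because repeated tags may be copies. Counting and tests ran in Python 3.11.15 with scipy 1.17.1, numpy 2.4.6 and pandas 2.3.3, figures were drawn with matplotlib 3.10.9, and the limma step was tested on simulated data.

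The 9 genes, the pathway lists and the markers were chosen with earlier results of these data known. Named genes are the 9 genes, the 2 nearest genes of each of the 9, and markers by list. Named pathway genes are those with the largest changes, at most 3 a list and direction. Rdh10, Aldh1a2 and Aldh1a3 were added to them after their values were seen. Some genes that this rule names are not reported here. Preparations are numbered 1 and 2 in the labels. Over 10306 genes, those of equal number and fragmentation deviated together from their CCE and FH means (r = 0.478, 0.626 and 0.614). The tissue means mix both fragmentation methods, and preparations of different number were not compared. The correlation therefore cannot tell a shared number from shared fragmentation, and pairing by number was an assumption. Between the locations, however, the log2 ratio of preparation 1 to 2 correlated with r = 0.641 for sheared CCE, -0.644 for hydrolysed CCE and -0.496 for hydrolysed FH libraries. The labels were kept and an exchange of the hydrolysed numbers at Nijmegen was tried. Further alternatives were another pseudocount, other filters and scalings, voom, repeated positions counted once, coding parts of exons, fragmentation as a covariate, single locations and each preparation left out.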

Additional observations from a re-analysis of the deposited data

Results flagged for a closer look

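Stra6 in the sheared CCE2 library sequenced at Nijmegen stood apart from the other 7 CCE RiboMinus libraries, at 16.5 RPKM. The gap to the next library took up 0.603 of the whole range. The same cDNA sequenced at Vienna-IMP had 10.9 RPKM. Of the 18 groups of libraries looked at in this way, about 1 in 20 is marked by chance.

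Crabp1 differed between the tissues in opposite directions under the 2 depletion methods. In hydrolysed RiboMinus libraries every FH library was above every CCE library, with a ratio of means of 1.93, while the ratio of FH to CCE was 0.425 in Ribo-Zero. The difference between the methods was not tested, since Ribo-Zero has 1 library per tissue. RNA sample, read length, sequencing location and depletion kit differ together between the methods and cannot be told apart.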

How the results depend on the processing

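The number of genes called stayed within 1.5 times 5638 under all 22 alternatives (4029 to 7926), and between 4 and 6 of the 9 genes were called. Cyp26a1, Dhrs3, Stra6 and Rarb kept their direction and call in all 22, with log2 fold changes of -3.66 to -2.89, -1.91 to -1.42, -1.38 to -0.86 and -1.03 to -0.46. The highest limma adjusted p of Rarb was 0.048, close to the threshold. With the assumed pairing of preparations as a replicate block, 7489 genes and 6 of the 9 were called and no call of the 9 changed. CCE2 sheared has no FH partner, so the block estimates equalled those without CCE2 sheared, as with 0.78 for Crabp1. With the hydrolysed numbers exchanged at Nijmegen, 5263 genes and 5 of the 9 were called. The Crabp1 call was lost in 10 alternatives, with limma adjusted p from 0.0548 to 0.142 in these, including those without CCE1 sheared (0.91), CCE2 sheared (0.78), FH1 hydrolysed (0.77) and FH2 hydrolysed (0.77), and with repeated positions counted once (0.50). Crabp2, not called, turned to negative values in 8, at -0.17 without the FH1 hydrolysed library of Vienna-IMP (added after seeing the data), -0.19 with repeated positions counted once, -0.13 with fragmentation as covariate, -0.025 at Nijmegen alone, -0.18 with the replicate block, -0.18 without CCE2 sheared, -0.21 without FH1 hydrolysed and -0.19 without FH2 hydrolysed, and reached 0.61 without FH1 sheared. The cause was not tested. Unfiltered, 7542 genes were called, 48.4% of them higher in FH.

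The share differences kept their direction in all 13 alternatives, with -55.1 to -47.6 percentage points for Cyp26a1 and 16.5 to 21.6 for Rarg. In Ribo-Zero 6 to 7 of the genes were past 2-fold in 4 alternatives. With repeated positions counted once, in the genes and in the scaling, the log2 ratio of Cyp26b1 was 0.96 and that of Rara -1.41. Depth limits FH values of Cyp26a1 and the promoter stretches, which rest on few tags.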
